A study of Mus musculus with 4 samples.

Results

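The genes of the p53 circuit form a set of 10 genes out of the 50600 in the count tables, and each symbol matched 1 gene identifier in the GENCODE M21 annotation of the mouse build mm10. They were chosen by name: Trp53, which codes for p53, its inhibitors Mdm2 and Mdm4, and the target genes Trp53inp1, Ccng1, Aen, Pmaip1, Eda2r, Zmat3 and Phlda3. RNA was measured in 4 libraries of primary mouse cells that share 1 label, regulatory T cell, from strain C57BL/6NJ. Replicate numbers 1 to 4 come from the labels, which give 1 donor record for all 4, a sex that was not collected and an unknown age. No genotype or treatment is labelled. Among the cited documents is one on the differentiation of CD4 T cells. The name of the count column in each file carries the word activated with a mark of 0 h. Nothing in the labels says how the cells of the 4 libraries were obtained from that donor record, so any p-value reflects sample-to-sample spread alone, and that spread may be technical. No second group was analysed here, and the questions are how high each gene of the circuit stood, in which order, and how far it moved between libraries.

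The p53 protein is a transcription factor that DNA damage and other stresses stabilise. In unstressed cells the ubiquitin ligase Mdm2 binds p53 and marks it for degradation, and its paralog Mdm4 binds p53 and blocks its activity. Mdm2 is itself a p53 target, so the pair forms a feedback loop. The p53 level is controlled mainly at the protein, which RNA does not measure. In T cells p53 is known for limiting division and for the death of thymocytes after irradiation.

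p53 binds DNA as a tetramer at paired copies of a 10-base element, the p53 half-site. It has 3 purines, a C, 2 positions of A or T, a G and 3 pyrimidines, and reads alike on both strands. RefSeq promoter windows on GRCm38.p6, running from 250 bases before a transcript start to 50 after it, were given for 7 of the 10 genes and not for Trp53inp1, Pmaip1 or Zmat3. An exact half-site lay in the windows of Ccng1, Mdm2, Trp53 and Aen, in 5 of the 9 windows of the set. In all promoter windows, 2745 of 32851 (8.36%) held at least 1. Ccng1 also held the element as 2 abutting copies in 20 bases with at most 1 mismatch, a rule set after the windows had been seen, and 29 of the 32851 windows (0.0883%) held such a pair. Of the 60 other pathway genes with a window, 14 held an exact half-site, and Cdkn1a, Rps27l and Gtse1 held such a pair. A match is a description of these letters and no evidence of binding. The pairs are shown because, with at most 1 mismatch, they match the paired element that p53 is known to bind. The half-sites in Mdm2, Trp53 and Aen match 1 copy of it alone. No window covered the intron 1 promoter of Mdm2, so its sites were not examined. Capitals mark the exact half-site in Mdm2, Trp53 and Aen and the pair in the other genes. The stretches lie at chr11:40755442-40755501 (minus strand, Ccng1), chr17:29090908-29090967 (plus, Cdkn1a), chr9:66946276-66946335 (plus, Rps27l), chr15:85859940-85859969 (plus, Gtse1), chr10:117710910-117710969 (minus, Mdm2), chr11:69580259-69580318 (plus, Trp53) and chr7:78895927-78895956 (plus, Aen). Those of Gtse1 and Aen reach into an annotated exon of the gene, and the other 5 lie outside exons.
Ccng1: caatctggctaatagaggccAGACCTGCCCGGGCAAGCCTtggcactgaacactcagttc
Cdkn1a: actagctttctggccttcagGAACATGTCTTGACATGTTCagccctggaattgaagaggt
Rps27l: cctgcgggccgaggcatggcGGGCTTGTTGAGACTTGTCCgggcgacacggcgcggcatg
Gtse1: accggGAGCAAGTTGGGGCTTGCCTctgac
Mdm2: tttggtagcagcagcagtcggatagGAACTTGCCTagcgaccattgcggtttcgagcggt
Trp53: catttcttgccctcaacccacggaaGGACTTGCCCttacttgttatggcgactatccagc
Aen: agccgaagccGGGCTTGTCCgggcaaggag

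Library totals ran from 23000465 counts in replicate 3 to 62090744 in replicate 2, with replicates 1 and 3 shallow and 2 and 4 deep. Levels below are in TPM, the count per exon length relative to the sum of that quantity over all genes of the library, given as mean ± SD with n = 4. The T cell genes Cd3e and Cd4 stood at 485 ± 20.1 and 1067 ± 31.4 TPM. The defining factor of regulatory T cells, Foxp3, stood at 8.28 ± 0.867 TPM, with Ctla4 at 7.77 ± 0.959, Il2ra at 5.52 ± 2.76 and Ikzf2 at 1.34 ± 0.194 TPM. All 4 lay below 27.7 TPM, the median of the 11670 genes that reached 1 TPM in every library. Among these 4, Il2ra alone was called variable between libraries (edgeR adjusted p = 1.19e-07). It measured 6.22, 3.63, 9.13 and 3.11 TPM in replicates 1 to 4. Of the genes of CD8 T cells, Cd8b1 stood at 39.95 ± 2.55 TPM and Cd8a at 0.794 ± 0.288 TPM, and the summed macrophage markers ran from 1.22 TPM in replicate 4 to 3.48 TPM in replicate 2. B cell RNA differed between the libraries. The B cell gene Cd79a measured 13.5, 9.20, 7.61 and 4.10 TPM in replicates 1 to 4 (edgeR adjusted p = 0.0164), and Ms4a1 measured 2.02, 1.07, 1.67 and 0.478 TPM (edgeR adjusted p = 0.00768). In bulk RNA, fewer cells of a type and less RNA per cell cannot be told apart.

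RNA of p53 itself was abundant and the steadiest of the set. Trp53 measured 223, 211, 209.8 and 218 TPM in replicates 1 to 4, on 5663 to 15769 counts, and averaged 216 ± 6.19 TPM. The highest library exceeded the lowest only 1.06-fold. This put Trp53 at rank 710 of 21764 protein-coding genes, above 96.7% of them. The gene lies on chromosome 11, 69580359 to 69591873, on the plus strand. A pseudogene of p53 shares sequence with it: 5.64% of the 50-base words sampled from its transcripts occurred in transcripts of other genes. Fragments with several alignments were left out of the counts, so the level may be understated. By the root mean square difference of log2(TPM+0.1) over the 4 libraries, the protein-coding genes nearest to Trp53 in level were Ap1b1 (0.02), Lasp1 (0.03) and Vipr1 (0.03).

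Both inhibitors were expressed, and Mdm2 stood below Mdm4. Mdm2 measured 69.3, 69.7, 69.2 and 63.4 TPM in replicates 1 to 4 (67.9 ± 3.02). Replicate 4 was the low one, 1.10-fold under the highest. The B cell genes Cd79a and Ms4a1 and the macrophage marker sum were also lowest in replicate 4, and their part in this, and in the low replicate 4 of Trp53inp1 and Zmat3 below, was not tested. Mdm4 measured 135, 145, 122 and 121 TPM (131 ± 11.6), high in replicates 1 and 2 and low in 3 and 4. For Mdm4, 8.61% of the sampled 50-base words were shared with its pseudogene, a larger share than for Trp53, so its level may be understated too. Mdm2 lies on chromosome 10, 117688875 to 117710758, and Mdm4 on chromosome 1, 132959484 to 133030561, both on the minus strand. The genes nearest to Mdm2 in level were Ctdp1 (0.03), Nol9 (0.03) and Herc3 (0.03), by the same measure.

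**Figure D1:**
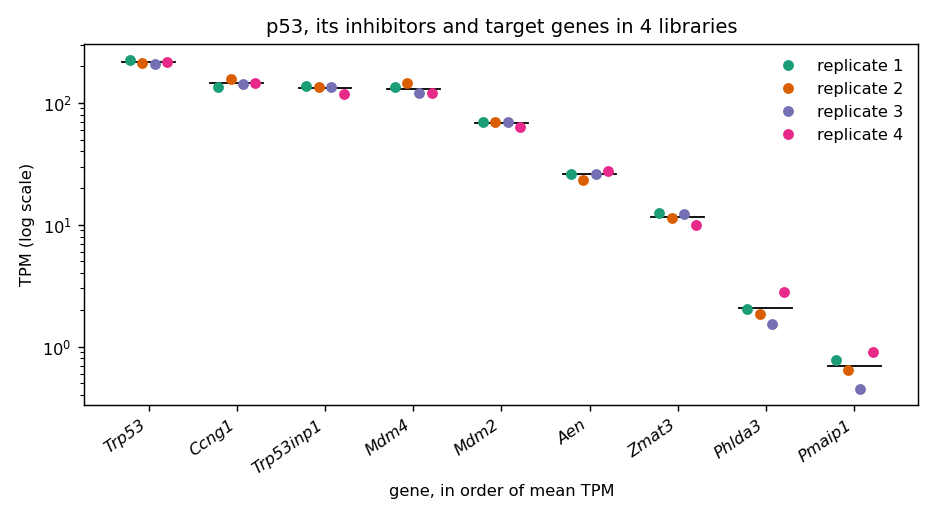
TPM on a log axis for 9 genes of the p53 circuit in order of mean level, with 1 point per library and a bar at the mean of 4. Trp53 lies highest at 216 TPM and Pmaip1 lowest at 0.697 TPM, and Eda2r is not drawn because it had no count.

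Within each library Mdm2 and Mdm4 were set against Trp53, since the inhibitors act on its product. The log2 ratio of Mdm2 to Trp53 was -1.69, -1.60, -1.60 and -1.78 in replicates 1 to 4, with a mean of -1.67 ± 0.09 (SD, n = 4). Mdm2 RNA was thus 31.5% of that of Trp53 on the TPM scale. The ratio of Mdm4 to Trp53 was -0.72, -0.54, -0.79 and -0.84, with a mean of -0.72 ± 0.13. The ratio of Mdm2 to Mdm4 was -0.96, -1.06, -0.81 and -0.94, with a mean of -0.94 ± 0.10, so Mdm4 exceeded Mdm2 1.92-fold. Each of the 3 ratios had its sign in 4 of 4 libraries and lay far outside the spread between them. An exact test that flips the signs of the library values, two-sided, gave 2 of 16 sign patterns at least as extreme for each ratio (p = 0.13, and the same after Benjamini-Hochberg adjustment for the 3 ratios). With 4 libraries no smaller p exists, and 0.05 is out of reach.

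The place of Mdm4 depends on its length. The count tables give it 14798 exon bases against 4045 for Trp53 and 5083 for Mdm2. In CPM, counts scaled to library size with length left out, the log2 ratio of Mdm4 to Trp53 turned to 1.15 ± 0.13 and that of Mdm2 to Mdm4 was -2.48 ± 0.10. With the longest protein-coding transcript as the length, 7105 bases for Mdm4 and 1867 for Trp53, the ratio of Mdm4 to Trp53 was -0.78, at levels of 198 and 340 TPM. The order of Trp53 over Mdm4 therefore holds per length, under either length, and not in fragments. The log2 ratio of Mdm2 to Trp53 kept its sign, at -1.34 ± 0.09 in CPM and -2.09 with the longest protein-coding transcript. Its size, and so the share of 31.5%, thus also depends on the length used.

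**Figure D2:**
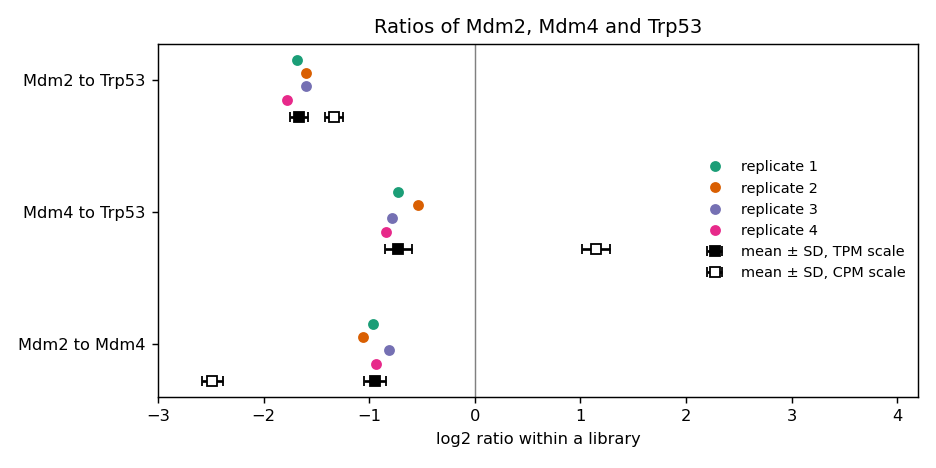
Log2 ratios within a library between Mdm2, Mdm4 and Trp53. Coloured points are the 4 libraries on the TPM scale, filled squares their mean ± SD, and open squares the mean ± SD on the CPM scale, where Mdm4 to Trp53 moves from -0.72 to 1.15.

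Of the 7 target genes, 2 stood near the level of Mdm4 in TPM from exon lengths. Ccng1, which codes for cyclin G1, a partner of protein phosphatase 2A that acts on Mdm2, measured 135, 156, 144 and 145 TPM in replicates 1 to 4 (145 ± 8.69). Its low library was replicate 1 and its high one replicate 2, 1.16-fold apart. Trp53inp1, a nuclear protein that promotes p53-dependent death and takes part in autophagy, measured 137, 136, 135 and 118 TPM (131 ± 9.04). Here replicates 1 to 3 lay together and replicate 4 lay below them, as for Mdm2. Ccng1 lies on chromosome 11, 40748552 to 40755311 (minus strand), and Trp53inp1 on chromosome 4, 11156431 to 11174379 (plus strand).

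Aen and Zmat3 stood in the middle of the range. Aen, an exonuclease that p53 induces in dying cells, measured 26.2, 23.4, 26.3 and 27.8 TPM (25.9 ± 1.82), lowest in replicate 2. Zmat3, a zinc finger protein that binds RNA and acts in p53-dependent tumour suppression, measured 12.5, 11.3, 12.2 and 9.92 TPM (11.5 ± 1.16), lowest in replicate 4. Aen lies on chromosome 7, 78895854 to 78911209 (plus strand), and Zmat3 on chromosome 3, 32334792 to 32366014 (minus strand). Against the median of 27.7 TPM over detected genes, Aen lay close to the middle and Zmat3 below it.

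The remaining 3 targets were low or without counts. Phlda3, which competes with Akt for membrane lipids and so restrains it, measured 2.03, 1.87, 1.54 and 2.79 TPM (2.06 ± 0.531) on 16 to 78 counts. Its exact Poisson 95% intervals, which cover counting error only, were 0.879 to 2.497 TPM in replicate 3 and 2.21 to 3.48 TPM in replicate 4. These overlap, and the edgeR p for Phlda3 over the 4 libraries was 0.409 before adjustment. Pmaip1, which codes for the death-promoting protein Noxa, measured 0.780, 0.647, 0.453 and 0.907 TPM (0.697 ± 0.194) on 8 to 43 counts. Its interval of 0.196 to 0.893 TPM in replicate 3 also overlapped that of 0.656 to 1.22 TPM in replicate 4. Eda2r, a receptor of the tumour necrosis factor family that p53 raises in many tissues, had 0 counts in all 4 libraries. A count of 3, the one-sided 95% limit that 0 counts allow, corresponds to 0.0284 TPM in replicate 4 and 0.0763 TPM in replicate 3. The two-sided intervals used for Phlda3 and Pmaip1 would reach up to 0.0349 and 0.0938 TPM in these libraries. Phlda3 lies on chromosome 1, 135766119 to 135769136 (plus strand), Pmaip1 on chromosome 18, 66458533 to 66465565 (plus strand), and Eda2r on chromosome X, 97333840 to 97377216 (minus strand).

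In order of mean TPM the set ran Trp53, Ccng1, Trp53inp1, Mdm4, Mdm2, Aen, Zmat3, Phlda3, Pmaip1 and Eda2r. Among the 9 pairs of neighbours, 7 had ranges over the libraries that did not overlap. The other 2 were Ccng1 with Trp53inp1, where Ccng1 was the higher in 3 of 4 libraries, and Trp53inp1 with Mdm4, where each was the higher in 2. With exon lengths, these 3 genes therefore did not differ beyond their spread. The wide step from Zmat3 to Phlda3 was 5.58-fold. In CPM the order opened with Mdm4 (554 CPM), Trp53 (249.7 CPM) and Trp53inp1 (244 CPM). With transcript lengths in place of exon lengths, Mdm4 moved up to the place after Trp53. It then stood at 198 TPM, against 115 TPM for Trp53inp1 and 106 TPM for Ccng1. A level of 1 TPM in all 4 libraries was reached by 8 of the 10 genes, against 23.1% of all genes and 45.7% of protein-coding genes. The 2 that missed it were Pmaip1 and Eda2r.

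For 7 of the 10 genes the spread between libraries was 10.1% of the mean or less. The edgeR test asked which genes varied between the 4 libraries more than genes of like level do. Of 12554 genes tested (residual deviance at the trended dispersion, Benjamini-Hochberg adjustment), 142 were called at an adjusted p of 0.05, a background of 1.13%. That count was 64, 85, 84 and 60 without replicate 1, 2, 3 and 4, and 88 with no filter on low counts. Among the circuit 9 genes entered the test, all but Eda2r, and 0 were called, which at that background is no result about the set. At an unadjusted p of 0.05 the count was also 0 of 9, with p from 0.149 for Zmat3 to 0.886 for Trp53 and an adjusted p of 1.00 in edgeR for each. The coefficient of variation was 2.87% for Trp53, 4.45% for Mdm2, 5.99% for Ccng1, 6.88% for Trp53inp1, 7.01% for Aen, 8.90% for Mdm4 and 10.1% for Zmat3. It reached 25.8% for Phlda3 and 27.9% for Pmaip1, the genes with the fewest counts. The median over the genes at 1 TPM in all libraries was 7.43%. A gene that was not called can still differ between libraries beyond counting error. The exact Poisson 95% intervals of Mdm4 were 143.9 to 146.8 TPM in replicate 2 and 119.9 to 122.6 TPM in replicate 4, and did not overlap. Those given above for Phlda3 and Pmaip1 did overlap.

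**Figure D3:**
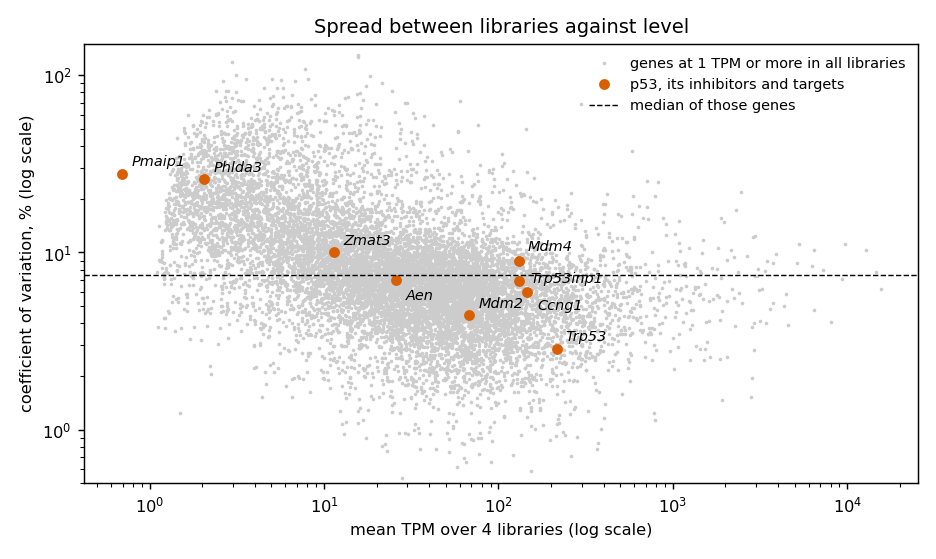
Coefficient of variation of TPM over 4 libraries against mean TPM, both on log axes, with grey points for the 11670 genes at 1 TPM in all libraries, a dashed line at their median of 7.43% and orange points for 9 genes of the p53 circuit. Trp53 at 2.87% lies low in the cloud, and the low-count genes Phlda3 and Pmaip1 (which is below 1 TPM) lie near 26% and 28%.

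Other genes of the pathway were read from 8 lists of 70 genes. Of these, 59 (84.3%) reached 1 TPM in all 4 libraries, against 23.1% of all genes and 45.7% of protein-coding genes. The same backgrounds apply to the detected counts of each list below. The lists were chosen with earlier results of these data known, so these shares are a description only. Of the 63 list genes that entered the edgeR test, 2 (3.17%) were called variable, against the background of 1.13%. The kinases that act on p53 or Mdm2 were detected for 6 of 7, with a median of 18.6 ± 1.98 TPM. Csnk1a1 (96.3 ± 5.003 TPM), Atm (59.4 ± 4.72 TPM), the kinase that DNA breaks activate, and Prkdc (35.5 ± 2.74 TPM) were highest. Chek1, a checkpoint kinase of dividing cells, stood at 0.454 ± 0.0687 TPM.

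Proteins that modify p53 or alter its activity or stability, in either direction, were all detected, 14 of 14, with a median of 56.7 ± 1.52 TPM. Trim28 (291 ± 12.6 TPM), Daxx (170.2 ± 12.3 TPM) and Usp7 (151 ± 10.8 TPM), the protease that removes ubiquitin from p53 and Mdm2, led this list, and Smyd2 (15.3 ± 0.970 TPM) was lowest. The other ubiquitin ligases for p53 were detected for 7 of 7, from Stub1 (192 ± 9.57 TPM), Huwe1 (182 ± 6.30 TPM) and Ube4b (62.3 ± 2.33 TPM) down to Cop1 (4.24 ± 0.282 TPM). Stub1 and Huwe1 thus stood above Mdm2 per length in every library.

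Proteins that bind Mdm2 from the nucleolus split sharply. The ribosomal proteins Rpl23 (1333 ± 85.01 TPM) and Rpl11 (505 ± 18.3 TPM) and the nucleolar protein Npm1 (524 ± 46.2 TPM) were abundant. These 3 have processed pseudogenes of near-identical sequence, so their levels are uncertain. Cdkn2a, whose product Arf blocks Mdm2, had no count in any library. The p53 relatives Trp63 and Trp73 had no count either, and of the ASPP cofactors Ppp1r13b (131 ± 8.36 TPM) and Trp53bp2 (36.9 ± 2.19 TPM) stood above Ppp1r13l (1.78 ± 0.212 TPM).

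Further p53 targets were read in 3 lists by role. Levels spread widely within each list, and the roles were not compared by a test. Targets listed under the cell cycle, not all of which halt it, were detected for 5 of 9. Their median of 3.65 ± 0.917 TPM is the level of Gtse1, the middle gene. Btg2 (359 ± 16.6 TPM), Sfn (104 ± 16.1 TPM) and Plk3 (29.3 ± 2.96 TPM) led, with Plk2 (0.555 ± 0.0804 TPM) lowest. Targets in cell death were detected for 9 of 10, at a median of 24.4 ± 0.573 TPM, from Bax (153 ± 10.1 TPM), Bbc3 (106 ± 18.4 TPM) and Fas (39.1 ± 2.40 TPM) down to Perp (0.0408 ± 0.0335 TPM). Bax and Bbc3 act on mitochondria in apoptosis. Targets in repair and metabolism were detected for 10 of 12, at a median of 19.9 ± 1.65 TPM, led by Ddb2 (136 ± 8.75 TPM), a sensor of damaged DNA, Sesn1 (130.3 ± 11.9 TPM) and Rps27l (46.5 ± 8.36 TPM), and Gdf15 had no count.

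**Figure D4:**
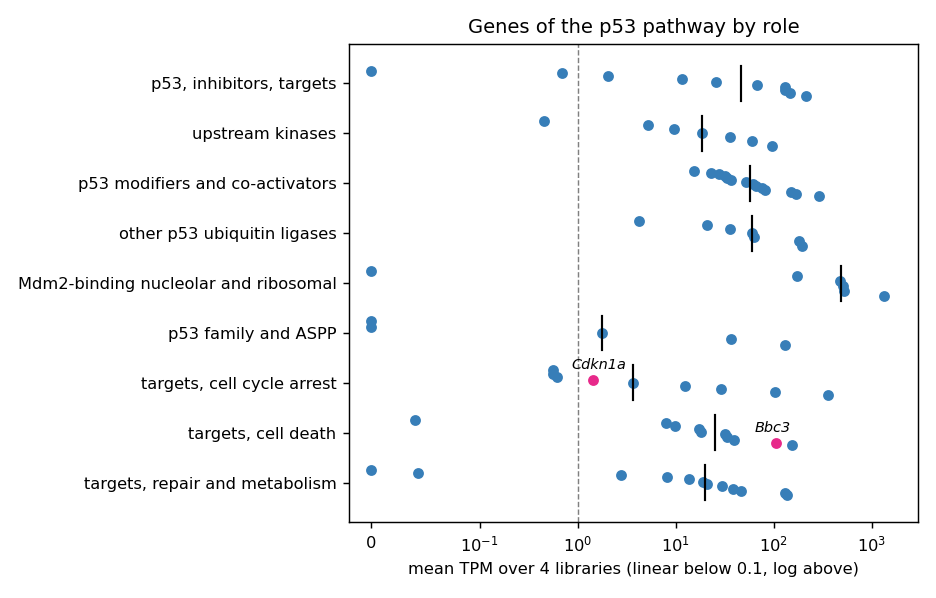
Mean TPM over 4 libraries (linear below 0.1, log above) for each gene of the circuit and of the 8 pathway lists, with a black line at each list's median and a dashed line at 1 TPM. Pink marks Cdkn1a and Bbc3, the 2 pathway genes called variable between libraries.

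The 2 pathway genes called variable were both p53 targets. Cdkn1a, the cell cycle inhibitor p21, measured 2.04, 0.436, 2.29 and 1.004 TPM in replicates 1 to 4, on 17 to 40 counts (edgeR adjusted p = 0.0243). It was high in the shallow replicates 1 and 3 and low in the deep replicates 2 and 4. The activation receptor gene Il2ra was ordered alike between those pairs, with 6.22 and 9.13 TPM in replicates 1 and 3 and 3.63 and 3.11 TPM in 2 and 4. Of the other regulatory T cell genes, Ikzf2 was ordered so too, by a narrow margin. Foxp3 and Ctla4 were not, with 8.08 and 7.27 TPM in replicate 1 against 8.18 and 9.13 TPM in replicate 2. The part of depth or of activated cells in the pattern of Cdkn1a was not tested. Bbc3 measured 128, 113, 89.3 and 92.3 TPM (edgeR adjusted p = 0.0434), high in replicates 1 and 2. Cd79a was also higher in replicates 1 and 2 (13.5 and 9.20 TPM) than in 3 and 4 (7.61 and 4.10 TPM). Ms4a1 was not ordered so, with 1.07 TPM in replicate 2 and 1.67 TPM in replicate 3. The part of B cell RNA in the pattern of Bbc3 was not tested. Neither call held with the DESeq2 dispersion trend (adjusted p = 0.375 for Cdkn1a and 0.0872 for Bbc3) or with no filter on low counts (0.278 and 0.548). Without replicate 2 the adjusted p for Cdkn1a was 1.00, without replicate 1 it was 0.0830 and without replicate 3 it was 0.167, and without replicate 4 Cdkn1a did not enter the test. For Bbc3 it was 1.00 without replicate 1, 0.418 without replicate 3, 0.185 without replicate 4 and 0.00273 without replicate 2. Cdkn1a averaged 1.44 ± 0.873 TPM, while Ccng1, whose promoter window holds the same kind of paired element, averaged 145 TPM.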

How the data were processed

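The molecule is labelled total RNA, but the title of the cited library protocol names poly(A)+ RNA, and which applies was not settled here. All 4 libraries are of 1 group. The labels number the replicates. The deposited unit is the raw count of fragments on each gene. Per the file headers, the authors counted with featureCounts 1.4.6-p4 over GENCODE M13 exons, paired ends, strand setting 2, with no option for fragments on several genes or alignments, so these are missing from near-identical copies. Exon lengths come from the same deposited files. No aligner version was found in the sources. Symbols and 1-based mm10 coordinates came from GENCODE M21, which matched 50376 of 50600 identifiers, and promoter sequences from RefSeq (GRCm38.p6).

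TPM was computed from count and exon length. Ratios used TPM plus 0.1 and an exact sign-flip test. Variation between libraries used edgeR 4.0.16 (R 4.3.3) across all genes with filterByExpr, TMM, an intercept-only fit and a chi-square test of residual deviance (dispersion from the trend), tested on simulated data. DESeq2 1.42.0 gave alternatives. Other values came from Python 3.11.15 with pandas 2.3.3, scipy 1.17.1 and numpy 2.4.6. Libraries held 23000465 to 62090744 counts. For a gene without counts, 3 counts set the limit. These limits and the Poisson intervals cover counting error only.

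The genes and lists were chosen with earlier results of these data known. Named genes are the 10 genes of the set, in each pathway or marker list the 3 highest, the lowest and those called variable, and the 3 nearest in level to Trp53 and Mdm2. Gtse1 was named for its promoter, and further genes without counts were named, after values were seen. One marker gene is not reported here.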

Additional observations from a re-analysis of the deposited data

Results flagged for a closer look

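In 61 examined sets of 4 library values, 5 had 1 library whose gap to the nearest other was so wide a share of the whole range that it passed Dixon's 95% critical value, and chance alone flags about 1 set in 20. Mdm2 stood at 63.4 TPM in replicate 4 against 69.2 to 69.7 in the others. Trp53inp1 stood at 118 TPM in replicate 4 against 135 to 137. The kinase gene Atm stood at 66.5 TPM in replicate 2 against 56.8 to 57.3. Bax stood at 138 TPM in replicate 2 against 157 to 159. The T cell receptor gene Trac stood at 3229.9 TPM in replicate 1 against 3483 to 3516. None of these 5 genes was called variable by edgeR across all genes.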

How the results depend on the processing

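No paired analysis was possible because the labels give 1 group. Of 135 recomputed values, 102 kept their result, 20 moved further, 12 lost their call and 1 changed sign. The last was the log2 ratio of Mdm4 to Trp53, at 1.15 in CPM. For most alternatives of a ratio, keeping the result meant keeping the sign only. For a count or an order it meant staying within a set fold, and for a level within its SD. The log2 ratio of Mdm2 to Mdm4 was -2.48 in CPM and that of Mdm2 to Trp53 was -2.09 with transcript lengths. Both kept their sign but lay outside the spread between libraries. The ratios of Mdm2 to Trp53 and of Mdm2 to Mdm4 kept their sign under every alternative run. The count of 142 genes called variable was 88 with no filter on low counts, 74 at an adjusted p of 0.01, and between 60 and 85 without 1 replicate. No gene of the circuit was called under any of these. Depth limits Phlda3, Pmaip1 and Eda2r, whose counts were at most 78.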

Other observations

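The paired p53 element with at most 1 mismatch lay in the promoter windows of 29 genes, of which 18 had a symbol in the count tables. Of these 18, 5 reached 1 TPM in all 4 libraries, against 23.1% of all genes and 45.7% of protein-coding genes. The 5 were Ccng1 (145 ± 8.69 TPM), Mthfd1 (56.7 ± 2.74 TPM), an enzyme of folate metabolism, Rps27l (46.5 ± 8.36 TPM), Calhm2 (7.75 ± 0.686 TPM) and Gtse1 (3.65 ± 0.917 TPM). Cdkn1a was below 1 TPM in replicate 2. These genes were named after their windows were seen, and no test was made.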
